A study of Mus musculus with 6 samples.

Results

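The genes described here are 10 immediate early genes that T cells induce through the T cell receptor (TCR), namely *Nr4a1*, *Nr4a2* and *Nr4a3* of the Nr4a family, *Egr1*, *Egr2* and *Egr3* of the Egr family, and *Fos*, *Fosb*, *Jun* and *Junb*, which encode subunits of AP-1. They were chosen by name, after the gene identifiers in the count tables had been given symbols with the mouse annotation GENCODE M21 on GRCm38, and they were 10 of the 53379 genes listed. All 10 were counted in every mouse and all 10 passed the expression filter. The RNA came from spleens of female mice aged 6 to 8 weeks, 3 CTL and 3 *Prdm1*-CKO, whose follicular helper T (Tfh) cells were taken 7 days after immunization with NP-CGG, a hapten on a carrier protein, in complete Freund's adjuvant. Live TCRβ+CD4+ cells positive for CXCR5 and PD1 were sorted without a FOXP3 gate, so follicular regulatory T cells could be among them, and each mouse gave 1 RNA-seq library. *Prdm1*-CKO mice were Prdm1 fl/fl;CD11c-CRE+, in which CD11c sequences drive the Cre and dendritic cells are the intended site of deletion. CTL mice were Prdm1 fl/fl;CD11c-CRE- or Prdm1+/+;CD11c-CRE+, and the labels do not say which of the 2 genotypes each CTL mouse carried. The labels name the second group both KO and KD, and it was taken as the *Prdm1*-CKO group. The comparison asks whether Tfh cells that matured beside BLIMP-1-deficient dendritic cells carry other levels of these transcripts, and whether the levels vary together among mice of 1 group.

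Immediate early genes are transcribed within minutes of a signal, from factors that are already in the cell, and most of their mRNAs and proteins are short-lived. In T cells, TCR ligation feeds ERK, which acts on the promoters of *Fos*, *Egr1* and related genes through SRF and its partners, and calcium, which acts through NFAT, MEF2 and CREB and is a strong input to the Nr4a genes. AP-1 with NFAT drives cytokine and activation genes, whereas the Egr and Nr4a factors include brakes on T cell activation and genes needed for Tfh differentiation. None of them is particular to T cells: macrophages and B cells use the same genes, and stress during tissue handling is known to induce several of them.

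No member passed a test of *Prdm1*-CKO against CTL Tfh cells. In edgeR's quasi-likelihood test with Benjamini-Hochberg adjustment over the 14555 genes tested, 0 of 10 members passed an adjusted p of 0.05 in either direction, beside 0% of all genes higher and 0% lower, and the members' adjusted p ranged from 0.996 to 0.998. At an unadjusted p under 0.05 the count was also 0 of 10, beside 2.35% of all genes (0.928% higher and 1.42% lower). DESeq2's Wald test likewise called 0 of 10 members, beside 0.053% of all genes at an adjusted p and 2.62% at an unadjusted p. Among the members, the 2 groups overlapped in 10 of 10, while 4.56% of all genes had every *Prdm1*-CKO mouse above every CTL mouse and 3.86% had the reverse. Among mice of the same group, *Fos*, *Jun* and *Fosb* had the largest spread of the 10, and the AP-1 genes and *Nr4a1* varied together.

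Total counts per library lay between 7147601 and 16973392, and the level that 3 counts would give lay between 0.169 and 0.444 CPM (counts relative to library size, using edgeR's TMM factors). This floor covers counting error only, and the smallest count of any member was 28, for *Egr3* in CTL replicate 2. CTL replicate 2 stood apart from the other 5 mice over all genes, at 134.6 on the first principal component (56.4% of the variance) against -29.1 to -24.0, so the members' fold changes, spread and correlations, and the counts over other gene lists, are also given without it. The Tfh markers checked, among them *Cxcr5*, *Pdcd1* and *Bcl6*, were detected in every mouse in 12 of 12 cases, with a summed level of 3083 to 3962 CPM in CTL and 2985 to 3319 CPM in *Prdm1*-CKO mice. Macrophage and monocyte markers were also present in 12 of 12 cases, at a summed 2305 to 5075 CPM in CTL and 4100 to 4957 CPM in *Prdm1*-CKO mice. *Prdm1* itself, the gene deleted in dendritic cells, was at 28.9, 29.97 and 27.5 CPM in CTL and 30.2, 30.8 and 30.9 CPM in *Prdm1*-CKO Tfh cells, which does not check a deletion in another cell type. Each replicate was a mouse of its own, and no batch is given.

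Per length of exon, *Junb* was the most abundant member, with a level of 239 ± 83.2 RPKM in CTL and 234 ± 60.2 RPKM in *Prdm1*-CKO mice (SD, n = 3 each). On the same scale *Fos* followed at 152 ± 165 and 141 ± 73.2, *Nr4a1* at 85.3 ± 29.1 and 103 ± 13.3, and *Jun* at 83.7 ± 65.4 and 82.4 ± 12.6 RPKM. A middle tier held *Egr1* at 23.6 ± 2.14 and 20.1 ± 1.76 RPKM and *Egr2* at 21.3 ± 7.82 and 20.8 ± 4.32 RPKM. *Fosb* was lower, at 7.15 ± 5.55 and 6.99 ± 1.62 RPKM. The lowest were *Nr4a2* at 2.83 ± 0.69 and 2.65 ± 0.34, *Nr4a3* at 2.23 ± 0.18 and 2.01 ± 0.38, and *Egr3* at 1.66 ± 0.88 and 2.22 ± 0.77 RPKM. Neighbours within the first 4, within the Egr pair and within the last 3 did not differ beyond their spread among mice. By contrast *Fosb* in its lowest mouse, at 3.74 RPKM, lay above *Nr4a2* in its highest, at 3.56 RPKM.

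**Figure D1:**
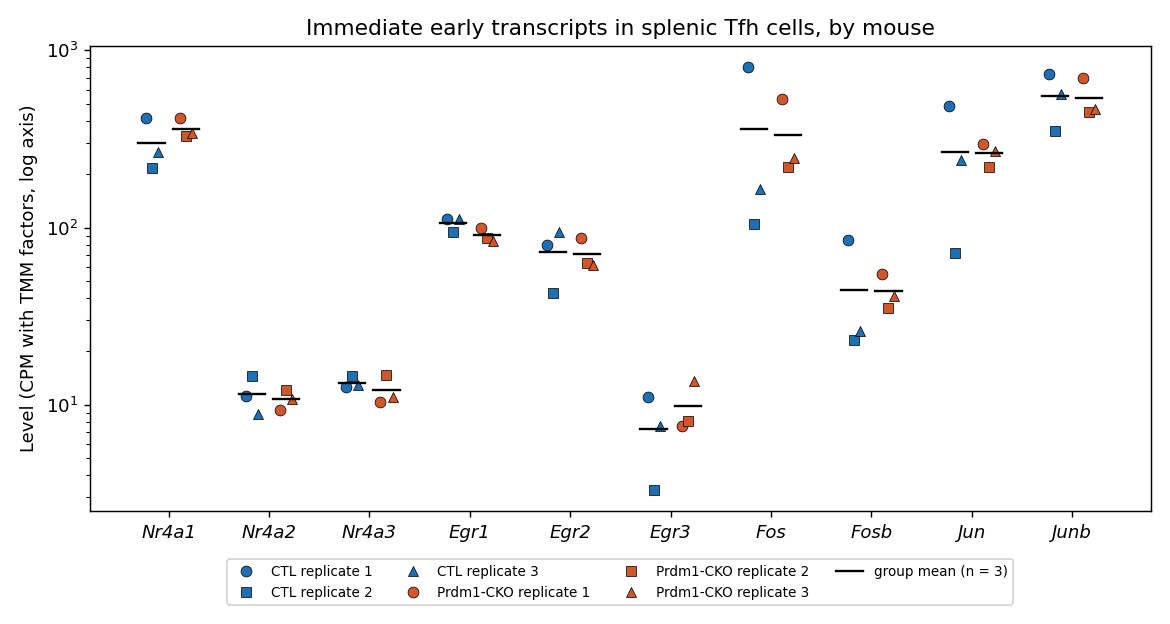
Level of each member in each mouse (CPM with TMM factors, log axis), with CTL mice in blue, *Prdm1*-CKO mice in orange, a symbol for each replicate number and a bar for the group mean (n = 3). *Fos* runs from 105 to 804 CPM and *Jun* from 71.8 to 487 CPM across CTL mice, whereas *Nr4a3* and *Egr1* keep to a narrow band in both groups.

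The AP-1 genes encode basic leucine zipper proteins that bind DNA as pairs, with a Fos protein always paired to a partner such as a Jun protein. *Fos* (GRCm38 chromosome 12, 85473890 to 85477273, plus strand) was at 804, 105 and 164 CPM in CTL replicates 1 to 3 and at 530, 220 and 246 CPM in *Prdm1*-CKO replicates 1 to 3. These levels stood on 884 to 11743 counts per mouse. Replicate 1 was the high mouse in each group, and the 3 *Prdm1*-CKO mice lay within the range of the CTL mice. The means were 358 ± 388 and 332 ± 172 CPM (SD, n = 3), and the log2 fold change of *Prdm1*-CKO over CTL was -0.11 with an SE of 0.71 and a 95% interval of -1.73 to 1.51 (edgeR, adjusted p = 0.997). That was the widest interval of the 10 members.

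*Jun* (chromosome 4, 95049034 to 95052222, minus strand), the best known partner of Fos, was at 487, 71.8 and 242 CPM in CTL and 298, 219 and 272 CPM in *Prdm1*-CKO mice. Here CTL replicate 2 was the low mouse, and the *Prdm1*-CKO mice lay inside the range of the CTL mice. Its log2 fold change was -0.02 with an SE of 0.54 and an interval of -1.27 to 1.22 (edgeR, adjusted p = 0.998). *Jun* shares 232 bases of exon, 7.28% of its own, with the antisense gene *Junos*, which had 0 to 6 counts per mouse. *Junb* (chromosome 8, 84974484 to 84978718, minus strand), a Jun protein abundant in activated T cells, was at 733, 351 and 566 CPM in CTL and 698, 449 and 469 CPM in *Prdm1*-CKO mice. Replicate 1 was again the highest of each group, with a log2 fold change of -0.03, an SE of 0.28 and an interval of -0.67 to 0.61 (edgeR, adjusted p = 0.998). *Junb* shares 173 bases, 7.52% of its exons, with *Prdx2* on the opposite strand, which had 1182 to 3075 counts per mouse, and whether counting used the strand is not given in the sources used here. *Fosb* (chromosome 7, 19302696 to 19310051, minus strand), a relative of Fos, was at 84.6, 23.3 and 26.0 CPM in CTL and 54.8, 35.0 and 41.2 CPM in *Prdm1*-CKO mice. Both mice numbered 1 were high, and the log2 fold change was -0.04 with an SE of 0.48 and an interval of -1.14 to 1.06 (edgeR, adjusted p = 0.998).

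The stretches before the start sites of the 4 AP-1 genes and of *Nr4a1* are shown because these 5 genes varied together among mice. Each is 140 bases from RefSeq on GRCm38.p6, written along the gene's own strand and ending 10 bases before the RefSeq start, and none overlaps an exon of GENCODE M21. Capitals mark the half-site of a cAMP response element (CRE), TGACG or its reverse complement CGTCA, and in *Fos* also the TATA box, TATAAA. They lie at chr12:85473740-85473879 (plus strand) for *Fos*, chr4:95052233-95052372 (minus) for *Jun*, chr7:19310056-19310195 (minus) for *Fosb*, chr8:84978759-84978898 (minus) for *Junb* and chr15:101266696-101266835 (plus) for *Nr4a1*.
Fos: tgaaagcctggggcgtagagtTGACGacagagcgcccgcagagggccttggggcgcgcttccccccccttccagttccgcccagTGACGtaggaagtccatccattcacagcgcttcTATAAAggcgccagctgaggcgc
Jun: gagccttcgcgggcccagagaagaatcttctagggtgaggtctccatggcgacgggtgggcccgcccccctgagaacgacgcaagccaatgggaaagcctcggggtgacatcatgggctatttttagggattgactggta
Fosb: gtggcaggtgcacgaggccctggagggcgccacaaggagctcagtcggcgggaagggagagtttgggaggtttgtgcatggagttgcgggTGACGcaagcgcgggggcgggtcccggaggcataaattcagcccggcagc
Junb: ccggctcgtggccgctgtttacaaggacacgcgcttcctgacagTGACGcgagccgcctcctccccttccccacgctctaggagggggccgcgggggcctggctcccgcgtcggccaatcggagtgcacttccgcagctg
Nr4a1: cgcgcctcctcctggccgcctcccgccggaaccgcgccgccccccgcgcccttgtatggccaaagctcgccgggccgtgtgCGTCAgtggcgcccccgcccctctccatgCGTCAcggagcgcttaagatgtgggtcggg

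The *Fos* stretch holds 2 CRE half-sites upstream of its TATA box, and *Jun* is the member shown with none. In the RefSeq windows of 300 bases around the start, which were at hand for 8 of the 10 members, the half-site was found on either strand in 7 of 8 genes, beside 20.81% of all 32851 windows. Full CRE palindromes (TGACGTCA, 1.79% of all windows), AP-1 sites (TGANTCA, 7.808%) and Nr4a monomer sites (AAAGGTCA, 1.507%) were in 0 of 8. Only exact matches were counted. The *Jun* stretch holds tgacatca, a near match to the full CRE that such a search leaves out. An Egr site (GCGNGGGCG, 5.552%) and the string TATAAA (13.62%) were each in 3 of 8, and an SRF-binding CArG box (1.629%) was in 1 of 8, *Egr2*. Relative to the start, TATAAA lay at -33 in *Fos*, at -164 in *Nr4a2* and at 0 in *Junb*. The full CRE holds the half-site, and *Egr2* has more than 1 window. The serum response element for which *Fos* is known lies farther upstream than these windows. At the other end of the transcript, AU-rich elements mark many short-lived mRNAs. The 3′ UTR held the core ATTTA in 10 of 10 members, beside 65.5% of 11635 tested genes, and the longer TATTTAT in 5 of 10 (*Nr4a2*, *Nr4a3*, *Fos*, *Fosb* and *Jun*), beside 26.97%. The members' 3′ UTRs had a median length of 1224.5 bases against 946, and a median of 2.57 against 1.20 cores per kilobase.

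The Egr genes encode zinc finger factors that bind a shared GC-rich site. *Egr1* (chromosome 18, 34859823 to 34864984), a direct target of the ERK pathway, was at 111, 94.5 and 111 CPM in CTL and 99.2, 87.1 and 84.4 CPM in *Prdm1*-CKO mice. It had the narrowest spread of the 10, with a highest mouse 1.32 times the lowest, and the groups overlapped only through CTL replicate 2 and *Prdm1*-CKO replicate 1. The means were 106 ± 9.62 and 90.3 ± 7.88 CPM (SD, n = 3), and the log2 fold change of -0.23, with an SE of 0.16 and an interval of -0.59 to 0.13, was not past the test (edgeR, adjusted p = 0.996).

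*Egr2* (chromosome 10, 67535475 to 67542188), which limits T cell activation and acts in Tfh differentiation, was at 80.0, 42.9 and 94.4 CPM in CTL and 87.6, 62.7 and 61.6 CPM in *Prdm1*-CKO mice. CTL replicate 2 was low and the group means were 72.4 ± 26.6 and 70.7 ± 14.7 CPM (SD, n = 3), with a log2 fold change of -0.03, an SE of 0.30 and an interval of -0.72 to 0.65. *Egr3* (chromosome 14, 70077203 to 70082614), which overlaps *Egr2* in function, was at 11.1, 3.32 and 7.55 CPM in CTL and 7.55, 8.13 and 13.7 CPM in *Prdm1*-CKO mice. It was the one member besides *Nr4a1* with a fold change above 0, at 0.41 on the log2 scale with an SE of 0.50 and an interval of -0.73 to 1.56 (edgeR, adjusted p = 0.996), and its lowest mouse was CTL replicate 2.

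The Nr4a genes encode orphan nuclear receptors, and *Nr4a1*, the gene of Nur77, is used as a reporter of TCR signal strength. *Nr4a1* (chromosome 15, 101254269 to 101274795) was at 414, 217 and 268 CPM in CTL and 415, 328 and 341 CPM in *Prdm1*-CKO mice. The highest mouse of each group stood at nearly the same level, and the CTL mean was lower through replicates 2 and 3. The means were 299 ± 102 and 361 ± 46.8 CPM (SD, n = 3), with a log2 fold change of 0.27, an SE of 0.24 and an interval of -0.28 to 0.82 (edgeR, adjusted p = 0.996).

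*Nr4a2* (chromosome 2, 57106830 to 57124003, minus strand), the gene of Nurr1, was at 11.2, 14.5 and 8.88 CPM in CTL and 9.35, 12.1 and 10.8 CPM in *Prdm1*-CKO mice. *Nr4a3* (chromosome 4, 48045153 to 48086447), the gene of Nor1, was at 12.5, 14.6 and 12.9 CPM in CTL and 10.4, 14.6 and 11.1 CPM in *Prdm1*-CKO mice. In both genes replicate 2 was the highest mouse of each group, the opposite of the AP-1 genes. Their log2 fold changes were -0.10 with an interval of -0.83 to 0.63 for *Nr4a2* and -0.15 with an interval of -0.80 to 0.51 for *Nr4a3*, with SEs of 0.32 and 0.28 and the same adjusted p of 0.996 (edgeR).

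Over the 10 members the median log2 fold change was -0.04, beside 0.01 over all genes tested, and 2 of 10 lay above 0, beside 51.1% of all genes. An exact permutation test of mean log2 CPM, 3 against 3 mice and two-sided, gave p from 0.2 for *Egr1* to 1 for *Egr2* and *Junb*, and cannot go below 0.1 in this design. The direction of the AP-1 genes, at -0.11 to -0.02 with all mice, changed with the mouse left out. Without CTL replicate 1 the log2 fold changes were 1.29 for *Fos*, 0.81 for *Fosb*, 0.72 for *Jun* and 0.21 for *Junb*. The median was then 0.39, and 7 of 10 members lay above 0, beside 50.7% of all genes. *Fos*, *Fosb* and *Nr4a1* then had an unadjusted p under 0.05 (0.0190, 0.0219 and 0.0212), beside 7.18% of all genes in that fit, and each had an adjusted p of 0.685 (edgeR). Without CTL replicate 2 the values went the other way, with -0.54 for *Fos*, -0.35 for *Fosb*, -0.48 for *Jun* and -0.28 for *Junb*, a median of -0.29 and 3 of 10 members above 0, beside 48.6% of all genes. Leaving out *Prdm1*-CKO replicate 2 gave values above 0 as well, at 0.12 for *Fos*, 0.10 for *Fosb*, 0.098 for *Jun* and 0.093 for *Junb*. Leaving out *Prdm1*-CKO replicate 3 gave 0.067 for *Fos*, 0.0027 for *Fosb*, -0.046 for *Jun* and 0.062 for *Junb*. No direction can therefore be given for the AP-1 genes from these mice.

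**Figure D2:**
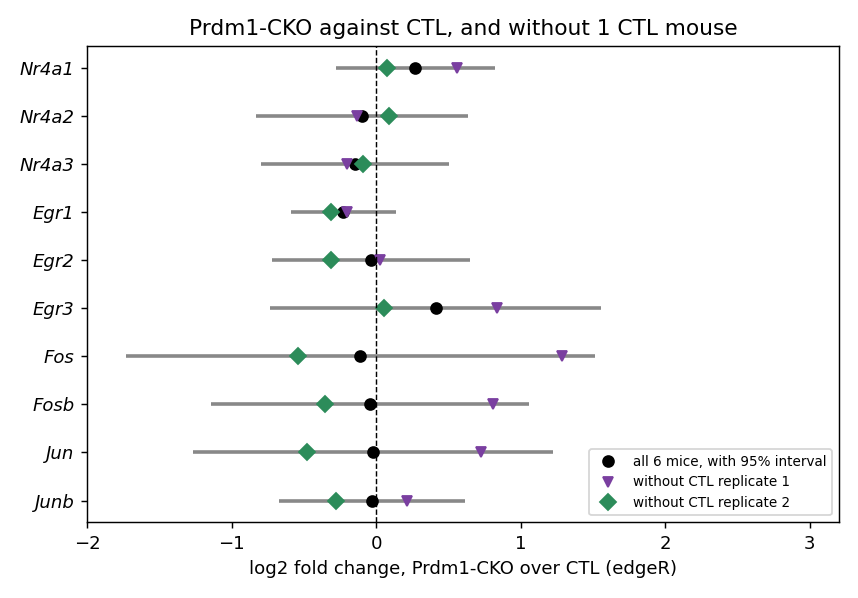
Log2 fold change of *Prdm1*-CKO over CTL for each member from edgeR, with all 6 mice (black, with its 95% interval), without CTL replicate 1 (purple) and without CTL replicate 2 (green). All 10 intervals hold 0, and *Fos* moves from -0.54 without CTL replicate 2 to 1.29 without CTL replicate 1.

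To set the spread among mice against that of other genes, the SD of log2 CPM within groups was compared with genes whose mean level lay within 0.5 log2 units. *Fos* had an SD of 1.20, and 0 of the 541 genes at like level had a larger one. *Jun* had an SD of 1.00, and 4 of 699 genes at its level exceeded it. For *Fosb* the SD was 0.76 with 80 of 2449 genes above it, and for *Junb* 0.45 with 14 of 199 above it. These 4 AP-1 genes were thus at the variable end for their level, with a highest mouse 7.68, 6.78, 3.63 and 2.09 times the lowest.

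*Nr4a1* (SD 0.36, 53 of 425 genes larger), *Egr2* (0.47, 308 of 2347) and *Egr3* (0.69, 336 of 1367) were moderately variable for their level. At the steady end, *Nr4a3* had an SD of 0.20 with 1519 of 1639 genes at its level more variable, *Egr1* 0.13 with 1649 of 1921, and *Nr4a2* 0.28 with 1243 of 1508. The median SD of the 10 members was 0.46, beside 0.40 over all genes tested. The spread lay mostly within CTL mice: *Fos* differed 7.68-fold among CTL and 2.42-fold among *Prdm1*-CKO mice, and *Jun* 6.78-fold and 1.36-fold. Without CTL replicate 1 the SD fell to 0.62 for *Fos* and 0.27 for *Fosb* but was 0.74 for *Jun*, and without CTL replicate 2 it was 1.09, 0.74 and 0.45 for *Fos*, *Fosb* and *Jun*. Each of these CTL mice thus carried part of the spread.

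**Figure D3:**
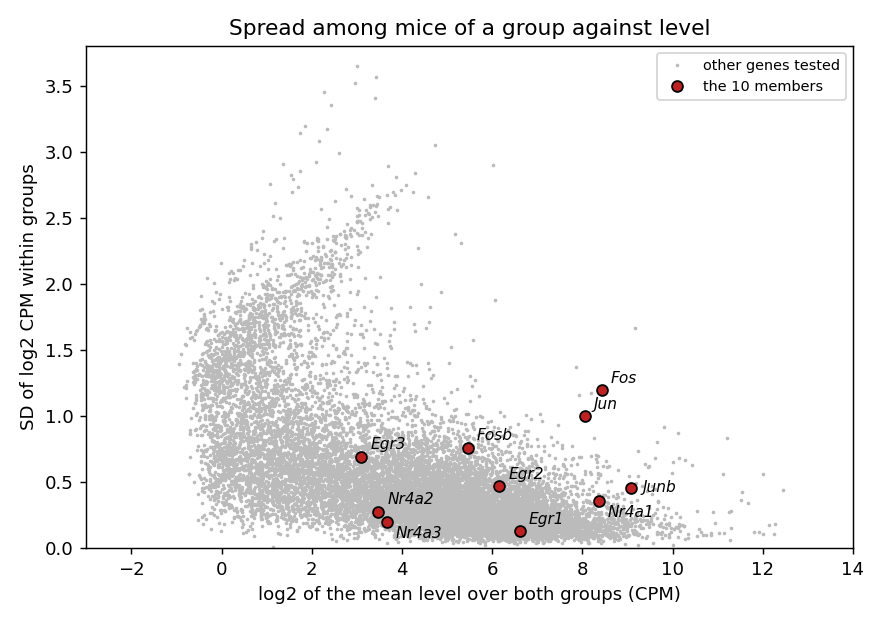
SD of log2 CPM within groups against the log2 mean level over both groups (CPM), for the 10 members (red) and the other genes tested (grey). *Fos* (SD 1.20) and *Jun* (1.00) lie above nearly all genes of their level, and *Egr1* (0.13) and *Nr4a3* (0.20) lie within the lower part of the cloud.

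The members' deviations from their group means fell into a common pattern. Replicate 1 was the highest mouse in both groups for 6 of 10 members (*Nr4a1*, *Fos*, *Fosb*, *Jun*, *Junb* and *Egr1*), beside 12.6% of all genes. CTL replicate 2 was the lowest of the 6 mice for 7 of 10 (all but *Nr4a2*, *Nr4a3* and *Egr1*), beside 35.1% of all genes. On the log2 scale the 4 AP-1 genes deviated on average by 1.16, -0.99 and -0.18 in CTL replicates 1 to 3 and by 0.43, -0.31 and -0.12 in *Prdm1*-CKO replicates 1 to 3. The Egr genes deviated on average by 0.35, -0.59 and 0.24 in CTL mice. Among *Prdm1*-CKO mice they did not move together, with *Egr2* at 0.33 and *Egr3* at -0.32 in replicate 1 and *Egr2* at -0.18 and *Egr3* at 0.53 in replicate 3. One axis, the first principal component of these deviations, held 84.2% of the members' variance within groups, beside 58.3% for all genes tested. For the AP-1 genes alone it held 92.4%. These sets hold 10, 14555 and 4 genes, and the shares make no allowance for size. A high share was not particular to the members. Other lists ranged from 39.9% for T cell activation targets to 96.6% for heat shock genes, with 86.5% for macrophage and monocyte markers. Without CTL replicate 2 the share for the members was 84.7%, with no value over all genes beside it. Genes with a large spread weigh most in this share, and with members scaled to unit variance it was 73.5% over all 6 mice.

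**Figure D4:**
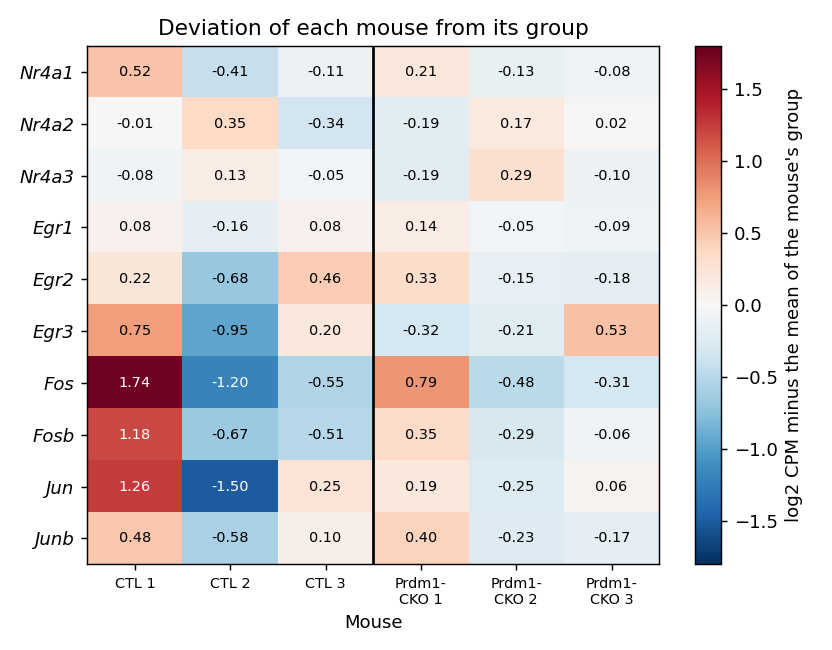
Deviation of each mouse from the mean of its group (log2 CPM) for each member, with CTL mice left of the line and *Prdm1*-CKO mice right of it. The AP-1 rows and *Nr4a1* are red in CTL replicate 1 and *Prdm1*-CKO replicate 1 and blue in CTL replicate 2, while *Nr4a2* is highest in CTL replicate 2 (0.35).

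Pearson correlations of these deviations over the 6 mice describe the same pattern, and they share the 2 group means, the libraries and their depths. All 6 pairs of AP-1 genes were positive, with a median r of 0.88 (0.81 to 0.98), and so were all 12 pairs of an AP-1 with an Egr gene, with a median of 0.68. *Nr4a1* went with the AP-1 genes, at r from 0.91 with *Jun* to 0.99 with *Fos*. The other Nr4a genes did not: all 8 pairs of *Nr4a2* or *Nr4a3* with an AP-1 gene were negative (-0.73 to -0.23), while *Nr4a2* and *Nr4a3* were at 0.67 with each other. Without CTL replicate 2 the AP-1 pairs kept a median of 0.91 and *Nr4a1* with AP-1 one of 0.97, the AP-1 with Egr median dropped to 0.28 with 9 of 12 pairs positive, and 3 of the 8 pairs with *Nr4a2* or *Nr4a3* were positive. The lowest AP-1 pair was then 0.72 and the lowest pair of *Nr4a1* with AP-1 was 0.85. Without CTL replicate 1 the AP-1 pairs had a median of 0.83 (lowest 0.45) and *Nr4a1* with AP-1 one of 0.92 (lowest 0.78). Pairs of AP-1 with Egr genes then ran from 0.02 to 0.98. The common variation of *Fos*, *Fosb*, *Jun*, *Junb* and *Nr4a1* was thus also present with either 1 of these mice left out, with weaker lowest pairs. That of the Egr genes with them was closest with CTL replicate 2 included.

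Several other measures moved with this pattern. Heat shock genes deviated on average by 0.83, -0.79 and -0.04 in CTL and by 0.05, 0.03 and -0.08 in *Prdm1*-CKO mice. This mean was led by the inducible *Hspa1a*, at 214, 0.592 and 17.8 CPM in CTL and 63.7, 56.6 and 38.7 CPM in *Prdm1*-CKO mice. *Hspa1a* (SD 2.90) and its near copy *Hspa1b* (2.36) had 5 and 0 counts in CTL replicate 2, and the median SD of the list was 0.26. All 12 macrophage and monocyte markers were lowest in CTL replicate 2, and their sum was 5075, 2305 and 3549 CPM in CTL and 4852, 4100 and 4957 CPM in *Prdm1*-CKO mice, against 2749, 938 and 1500 and 2210, 1435 and 1551 CPM for the sum of the 10 members. The order of the CTL mice was thus the same for both sums, while among *Prdm1*-CKO mice the macrophage sum was highest in replicate 3 and the members' sum in replicate 1. Most of the macrophage sum was *Lyz2* alone, at 3476, 1763 and 2730 CPM in CTL and 3458, 2933 and 3362 CPM in *Prdm1*-CKO mice. B cell markers, of which 8 of 12 were detected in every mouse, summed to 212, 119 and 141 CPM in CTL and 278, 183 and 271 CPM in *Prdm1*-CKO mice. Both mice numbered 1 were deeply sequenced, at 14177558 and 16973392 counts, and *Prdm1*-CKO replicate 3, at 14885913 counts, had AP-1 genes 0.12 below its group mean on the log2 scale. The part of stress, other cell types and depth in the members' levels was not tested, and in these bulk samples fewer cells of a type and less RNA per cell cannot be told apart.

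**Figure D5:**
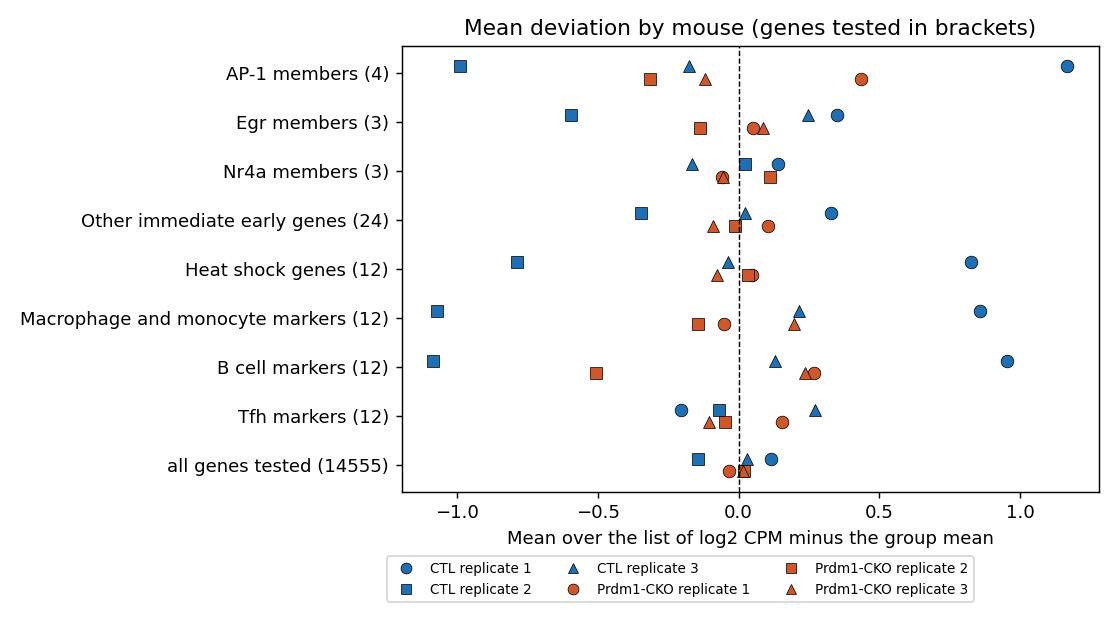
Mean deviation of each mouse from its group mean (log2 CPM) over the members of each family and over other gene lists, with the number of genes tested in brackets. The AP-1 genes spread from -0.99 to 1.16, heat shock genes and macrophage markers set CTL replicates 1 and 2 apart in the same direction, Tfh markers lie between -0.20 and 0.27, and all genes tested lie between -0.14 and 0.11.

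Other immediate early genes followed in part. Of 26 listed, 24 were tested, 0 passed an adjusted p of 0.05 or an unadjusted p of 0.05, 15 lay above 0 and the median log2 fold change was 0.07. Without CTL replicate 2, 11 of 24 lay above 0 and the median was -0.01. Replicate 1 was the highest in both groups for 10 of 24 and CTL replicate 2 the lowest mouse for 14 of 24. *Btg2*, an antiproliferative gene, was at 604, 402 and 477 CPM in CTL and 494, 447 and 481 CPM in *Prdm1*-CKO mice. *Nfkbia*, the NF-κB inhibitor, was at 441, 282 and 478 CPM and 521, 423 and 419 CPM. *Klf10* was at 110, 50.9 and 81.1 CPM and 116, 107 and 97.3 CPM. *Ier2* did not follow *Fos*: it was lowest in CTL replicate 1, at 145, 179 and 271 CPM in CTL and 301, 254 and 250 CPM in *Prdm1*-CKO mice.

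The AP-1 partners outside the members were steadier in the median, with an SD of 0.39 beside 0.88 for the AP-1 members, but not in every gene. *Atf3* (SD 0.58) was at 29.8, 9.95 and 12.9 CPM in CTL and 18.3, 18.4 and 17.5 CPM in *Prdm1*-CKO mice. *Maff* had an SD of 0.84, on 4 to 18 counts per mouse, and *Junb* one of 0.45. Of 10 listed bZIP genes 8 were tested, 0 passed either threshold, 6 lay above 0 and the median was 0.06. With CTL replicate 2 left out, 4 of 8 lay above 0 and the median was -0.02. *Batf*, which pairs with Jun proteins and is needed for Tfh cells, was at 147, 163 and 172 CPM in CTL and 184, 175 and 144 CPM in *Prdm1*-CKO mice, and *Atf4* was at 154, 179 and 219 CPM and 191, 185 and 170 CPM. *Fosl2* had the same order of mice as *Fos* apart from the top pair, with 23.6, 14.9 and 17.5 CPM in CTL and 24.7, 18.8 and 19.0 CPM in *Prdm1*-CKO mice. *Batf3* was at 5.07, 2.13 and 4.73 CPM and 6.93, 7.32 and 6.57 CPM, above the CTL range in every *Prdm1*-CKO mouse with a log2 fold change of 0.80 (edgeR, adjusted p = 0.996). It also stands among the dendritic cell markers.

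Upstream of the members, 21 genes of SRF, its partners, ERK, NFAT and CREB were tested, 0 passed either threshold, 9 lay above 0 and the median was -0.01. When CTL replicate 2 was left out, 13 of 21 lay above 0, the median was 0.04 and 1 had an unadjusted p under 0.05, with 0 past an adjusted p of 0.05 (edgeR). Replicate 1 was the highest in both groups for 1 of them and CTL replicate 2 the lowest for 2, so their levels did not share the members' pattern. *Rasgrp1*, which links the TCR to Ras, was at 335, 368 and 136 CPM in CTL and 303, 151 and 156 CPM in *Prdm1*-CKO mice. *Nfatc1* was at 207, 285 and 344 CPM and 262, 335 and 275 CPM, and *Creb1* at 124, 137 and 64.4 CPM and 83.0, 99.0 and 64.7 CPM.

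Among 19 feedback genes on ERK, Egr and TCR signals, 0 passed either threshold, 10 lay above 0 and the median was 0.03. Without CTL replicate 2, 7 of 19 lay above 0, the median was -0.05 and *Sh2b3*, an adaptor that restrains cytokine signals, had an unadjusted p of 0.0107 (log2 fold change 0.62, adjusted p = 0.999 in edgeR). *Dusp1*, a phosphatase that switches off MAP kinases and is itself an immediate early gene, was close to the AP-1 pattern at 563, 199 and 237 CPM in CTL and 471, 223 and 264 CPM in *Prdm1*-CKO mice. *Dgka*, which limits diacylglycerol signalling, was at 977, 1092 and 833 CPM and 935, 682 and 881 CPM. *Spry2* (1.48 to 7.34 CPM in CTL, 0.610 to 1.803 CPM in *Prdm1*-CKO mice) and *Dusp5* (16.4, 18.8 and 14.1 CPM, then 18.5, 31.7 and 22.3 CPM) had the smallest p of the list, 0.0834 and 0.0853 unadjusted. Downstream, 22 activation targets were tested, 0 passed the adjusted p, 1 had an unadjusted p under 0.05 and 11 lay above 0, with a median of -0.01. That gene was the chemokine *Ccl4*, at 42.7, 25.6 and 15.2 CPM in CTL and 15.3, 9.15 and 15.1 CPM in *Prdm1*-CKO mice (log2 fold change -1.08, unadjusted p = 0.0274 and adjusted p = 0.996 in edgeR). With CTL replicate 2 left out, 8 of 22 lay above 0, the median was -0.05 and *Ccl4* was again the gene with an unadjusted p under 0.05 (-1.14). *Tnfrsf4*, the gene of OX40, was at 235, 184 and 285 CPM and 243, 277 and 218 CPM, *Nfkb1* at 220, 212 and 240 CPM and 202, 262 and 195 CPM, and *Nfil3* at 21.9, 18.0 and 32.3 CPM and 47.3, 33.2 and 26.6 CPM.

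The genes whose levels were most like those of the members were taken by their Pearson r, over the 6 mice, with the mean of the members' log2 CPM after each was centred and scaled. Among 9292 other genes with a mean of at least 10 CPM these were *Pdhb* (r = 0.99), *Eps8l1* (0.99), *Cog5* (0.98), *Klf6* (0.98) and *Cnnm4* (0.98), given as a description. *Klf6*, a zinc finger factor on the list of other immediate early genes, was at 317, 166 and 198 CPM in CTL and 246, 209 and 201 CPM in *Prdm1*-CKO mice. *Pdhb*, a subunit of pyruvate dehydrogenase, covered a narrow range, at 206, 169 and 186 CPM and 189, 186 and 184 CPM. *Eps8l1* covered the widest range of the 5, at 40.1, 4.15 and 9.91 CPM and 18.5, 14.3 and 10.1 CPM.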

How the data were processed

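The authors sequenced Smart-seq2 libraries as paired reads of 25 bp. The submitters' processing notes name STAR 2.4.2a, GRCm38.p6 and DESeq2, and the study's methods name featureCounts. The deposited values are raw read counts per gene, without normalization. Strand use, the handling of multiply aligned reads and the counting of mates are not given in the sources used here. Of 53379 identifiers, 53274 had a symbol in GENCODE M21, 50604 of them in the same version, and *Nr4a1* was in an older one.

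Counts were fitted with edgeR 4.0.16 in R 4.3.3 (TMM, filterByExpr, quasi-likelihood F test, 3 against 3 mice, no covariate). P-values were two-sided and adjusted by the Benjamini-Hochberg method over 14555 genes. The SE is the log2 fold change divided by the square root of F. CPM used TMM factors, log2 CPM a prior count of 2, and RPKM the exon length in GENCODE M21. Alternatives were DESeq2 1.42.0, its size factors, other filters, the replicate number as a block, a prior count of 0.5, members scaled to unit variance and each mouse left out. Leaving out both mice numbered 1 was added after the data were seen. The steps were tested on simulated data. Members and gene lists were chosen with earlier results of these data known. Named were all members, the 2 most abundant genes and the 2 with the smallest p of each other list, and the 5 genes most like the members. Of these, 1 upstream gene is not reported here by itself. *Prdx2*, *Junos*, *Ier2*'s contrast with *Fos*, *Hspa1a*, *Dusp1*, *Prdm1*, *Sh2b3*, *Spib* and the 3 Tfh markers were named beside the results they touch, after their values were seen. So were *Atf3*, *Maff*, *Cd8a*, *Cd8b1*, *Eomes* and *Klrd1*.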

Additional observations from a re-analysis of the deposited data

How the results depend on the processing

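With 3 mice a group, the intervals of *Fos*, *Fosb*, *Jun* and *Egr3* reached past 1 log2 unit, so a difference of that size lies within them. These intervals are not adjusted for the 14555 genes tested, and they give no detection limit for any member. In every alternative run, 0 of 10 members passed an adjusted p of 0.05. Of all genes, DESeq2's Wald test called 7 higher and 2 lower and edgeR with no filter called 1 higher, against 0. The number of members above 0, 2 with all mice, was 3 to 7 with 1 mouse left out and 6 without both mice numbered 1. With the replicate number as a block it was 7 and the members' median was 0.11, with reversed values for *Egr2* (0.020), *Fos* (0.35), *Fosb* (0.20), *Jun* (0.34) and *Junb* (0.0033). Same-numbered mice correlated in their deviations over all genes at 0.158, 0.028 and 0.016, and over the 10 members alone at 0.63, 0.85 and 0.30. Over all genes CTL replicate 3 correlated best with *Prdm1*-CKO replicate 2, and the numbers were not taken as a pairing, a choice that rests on all genes. Without both mice numbered 1, *Fos* (0.79), *Fosb* (0.63), *Jun* (0.64) and *Junb* (0.00030) reversed, and 1 member, *Fos*, had an unadjusted p under 0.05, beside 2.80% of all genes in that fit. Dropping single mice, the log2 fold change ranged from 0.08 to 0.56 for *Nr4a1*, -0.24 to 0.086 for *Nr4a2*, -0.30 to -0.05 for *Nr4a3*, -0.31 to -0.18 for *Egr1*, -0.31 to 0.20 for *Egr2*, 0.06 to 0.84 for *Egr3*, -0.61 to 1.29 for *Fos*, -0.35 to 0.81 for *Fosb*, -0.48 to 0.72 for *Jun* and -0.28 to 0.21 for *Junb*, and the members' median from -0.29 to 0.39. Over the same fits the median SD was 0.31 (without CTL replicate 2) to 0.52 and the share of the first component 74.2% to 92.2%. Why the values moved was not tested beyond the mice left out.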

Other observations

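Beyond the members, 10 CD8 T cell and NK cell markers were compared, with 3 of 10 above 0, 0 past an adjusted p of 0.05, 3 past an unadjusted p of 0.05, all lower, and a median log2 fold change of -0.49 (edgeR). *Ccl5*, a chemokine of cytotoxic cells, was at 85.4, 74.3 and 109 CPM in CTL and 42.1, 59.2 and 50.8 CPM in *Prdm1*-CKO mice, without overlap (log2 fold change -0.82, unadjusted p = 0.00465 and adjusted p = 0.996 in edgeR). *Gzma*, a granule protease, was at 27.0, 62.3 and 37.7 CPM and 17.2, 18.4 and 21.7 CPM (-1.14, unadjusted p = 0.00725, the same adjusted p). *Nkg7* was at 145, 156 and 188 CPM and 121, 144 and 124 CPM. The third gene past the unadjusted threshold was *Cd8a* (-2.02, unadjusted p = 0.0270 and adjusted p = 0.996 in edgeR), on 6 to 42 counts per mouse. The 3 markers above 0 were *Eomes* (0.45), *Cd8b1* (0.44) and *Klrd1* (0.10), so *Cd8a* and *Cd8b1* went in opposite directions. The summed level of the 10 markers was 352 to 460 CPM in CTL and 262 to 322 CPM in *Prdm1*-CKO mice. *Fos* and *Jun* showed no such separation of the groups.

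All 12 B cell markers had a log2 fold change above 0, with a median of 0.83 and 0 past an unadjusted p of 0.05 (edgeR); *Cd79b* was at 44.0, 11.7 and 35.4 CPM in CTL and 58.9, 44.2 and 54.4 CPM in *Prdm1*-CKO mice, *Cd22* at 45.9, 61.1 and 35.1 CPM and 63.3, 35.7 and 47.0 CPM, and *Ms4a1* at 23.2, 18.0 and 11.5 CPM and 28.9, 22.4 and 32.5 CPM. All 12 macrophage and monocyte markers did so too, with a median of 0.48. Leaving out CTL replicate 2, the medians were 0.55 with 11 of 12 above 0 for the B cell markers, 0.13 with 12 of 12 above 0 for the macrophage and monocyte markers, -0.52 for the CD8 T cell and NK cell markers, 0.23 for the dendritic cell markers, 1.395 for the erythroid genes and -0.15 for the Tfh markers. In that fit *Spib* of the B cell markers, *Cd5l*, *Gzma*, *Ccl5* and *Hbb-bs* had an unadjusted p under 0.05, each with an adjusted p of 0.999 (edgeR). With all mice, the macrophage marker *Cd5l* (0.92, unadjusted p = 0.0158) and the complement gene *C1qc* (1.49, 0.0310) had an unadjusted p under 0.05 and an adjusted p of 0.996 (edgeR). *Lyz2* was at 3476, 1763 and 2730 CPM and 3458, 2933 and 3362 CPM, and *Csf1r* at 827, 319 and 386 CPM and 739, 559 and 807 CPM.

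Of 8 dendritic cell markers 7 were tested, 0 passed either threshold and the median was 0.32. *Itgax*, the gene of CD11c, was at 71.5, 38.7 and 23.7 CPM in CTL and 57.5, 46.7 and 73.0 CPM in *Prdm1*-CKO mice, *Cd209a* at 108, 41.5 and 119 CPM and 63.6, 113 and 159 CPM, and *Zbtb46* at 10.8, 29.4 and 14.9 CPM and 11.6, 6.91 and 10.8 CPM. Of the erythroid list 4 genes were tested, all above 0 with a median of 1.52, and 3 had an unadjusted p under 0.05; *Hbb-bs* was at 3.49, 3.55 and 9.77 CPM and 32.2, 7.12 and 21.8 CPM and *Hba-a1* at 2.33, 2.37 and 2.96 CPM and 7.44, 2.85 and 8.35 CPM. Among 12 Tfh markers 4 lay above 0 and *Cd4* was the one with an unadjusted p under 0.05, at 896, 1061 and 1031 CPM and 823, 774 and 847 CPM (-0.29, unadjusted p = 0.0465 and adjusted p = 0.996 in edgeR), while *Cd3e* was at 561, 642 and 786 CPM and 640, 542 and 671 CPM and *Cd200* at 166, 142 and 158 CPM and 153, 132 and 134 CPM.

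The heat shock genes *Hsp90ab1*, *Hspa5*, *Hspd1* and *Dnaja1* were far steadier than *Hspa1a*, though *Dnaja1* had the same order of CTL mice. *Hsp90ab1* was at 1708, 1536 and 1705 CPM in CTL and 1721, 1897 and 1645 CPM in *Prdm1*-CKO mice, *Hspa5* at 743, 554 and 754 CPM and 786, 657 and 634 CPM, *Hspd1* at 113, 82.0 and 123 CPM and 130, 114 and 121 CPM, and *Dnaja1* at 147, 73.1 and 109 CPM and 95.9, 87.6 and 92.6 CPM. Of 12 heat shock genes tested, 0 passed either threshold, 6 lay above 0 and the median log2 fold change was -0.01. With CTL replicate 2 left out, 3 of 12 lay above 0, the median was -0.11 and *Dnaja1* had an unadjusted p of 0.0239 (-0.48, adjusted p = 0.999 in edgeR). *Hspa1b*, a near copy of *Hspa1a* whose reads are hard to tell from it, was at 16.9, 0 and 1.48 CPM in CTL and 4.90, 6.30 and 5.20 CPM in *Prdm1*-CKO mice, and the 0 in CTL replicate 2 allows up to 0.355 CPM.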
